A study of Oryza sativa with 2 samples.

Results

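LEA and dehydrin genes were followed in the leaves of OsEATB transgenic rice seedlings. The genes were LEA19, RAB21, RAB16B and Dhn1, taken by symbol or synonym from a table of rice genes, and they were 4 of 17905 genes and 7 of 57381 probe sets measured. They were chosen by their signals on these 2 arrays, to set genes that stood near background in nontransgenic leaves and high in transgenic leaves against Dhn1, which was high in both, so that the differences below are descriptions and carry no test. Late embryogenesis abundant (LEA) proteins are very hydrophilic proteins that accumulate as seeds dry and in leaves and roots short of water, where they are held to protect membranes and other proteins. Dehydrins form a family among them, and the rice RAB16 genes encode dehydrins whose transcripts respond to abscisic acid, the hormone of drought and seed maturation. In well-watered leaves such transcripts are usually scarce.

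The tested plants were OsEATB transgenic seedlings of the indica cultivar 9311, and the controls were nontransgenic 9311 seedlings. OsEATB is a rice transcription factor of the ERF family. Each group was read by 1 array made from leaf RNA of 10 seedlings with 4 leaves, raised under normal conditions at the same temperature and light. The sources used here do not give the promoter of the transgene, the number of independent lines or whether the seedlings' RNA was pooled before labelling. With 1 array per group no difference has a replicate check, no p-value or error was computed, and 2-fold serves only as a size.

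Values are MAS5 signals, in which several short probes make up a probe set and give it 1 signal. They are printed on a log2 scale, or unlogged where called linear. A signal under the 40th percentile of its array, 4.61 on the transgenic and 4.41 on the nontransgenic array, was treated as background and raised to that floor, and a ratio with 1 side at the floor is a lower bound. A gene passed the level filter where a probe set reached the array median of 5.32 on the transgenic or 5.16 on the nontransgenic array. Of the 15192 genes that passed, 922 were at least 2-fold higher in transgenic leaves (6.07%) and 675 at least 2-fold lower (4.44%). All 4 LEA and dehydrin genes passed, LEA19 through the transgenic array alone, so that it could pass only by differing. No probe set was matched to OsEATB by the names used, and the labels therefore have no check from the introduced gene. Probe set names ending in s_at, a_at or x_at mark probes that may bind more than 1 transcript, or several transcripts of a gene.

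LEA19, a LEA protein gene that the gene table also lists as LEA3 and LEA3-1, had a bright signal in transgenic leaves and one under the background floor in nontransgenic leaves. Its only probe set, Os.12551.1.S1_s_at, had a linear signal of 6444 on the transgenic array and 4.49 on the nontransgenic array. On the log2 scale these were 12.65 in transgenic leaves and 2.17 in nontransgenic leaves. The transgenic value lay far above the 75th percentile of its array, at 8.39, and the nontransgenic value lay well under the background floor. The ratio was at least 302-fold, or a log2 ratio of at least 8.24. In leaf RNA as a whole, more cells with a transcript and more of it per cell cannot be told apart. The bound depends on where background is set: it was 7.49 with the floor at the array median and 6.57 with 64 added to each linear signal, and the difference as deposited was 10.49. The suffix of this probe set means that signal from a related transcript cannot be told apart from that of LEA19.

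A step from below the floor in nontransgenic leaves to the 75th percentile or above in transgenic leaves was rare. It was seen for 16 of the 15192 genes (0.105%), against 10 genes with the opposite step. Of the 16, 2 had a descriptive name, LEA19 and PIN4, an auxin efflux carrier gene with 10.01 in transgenic and 4.38 in nontransgenic leaves. The remaining genes carried locus numbers alone.

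**Figure D1:**
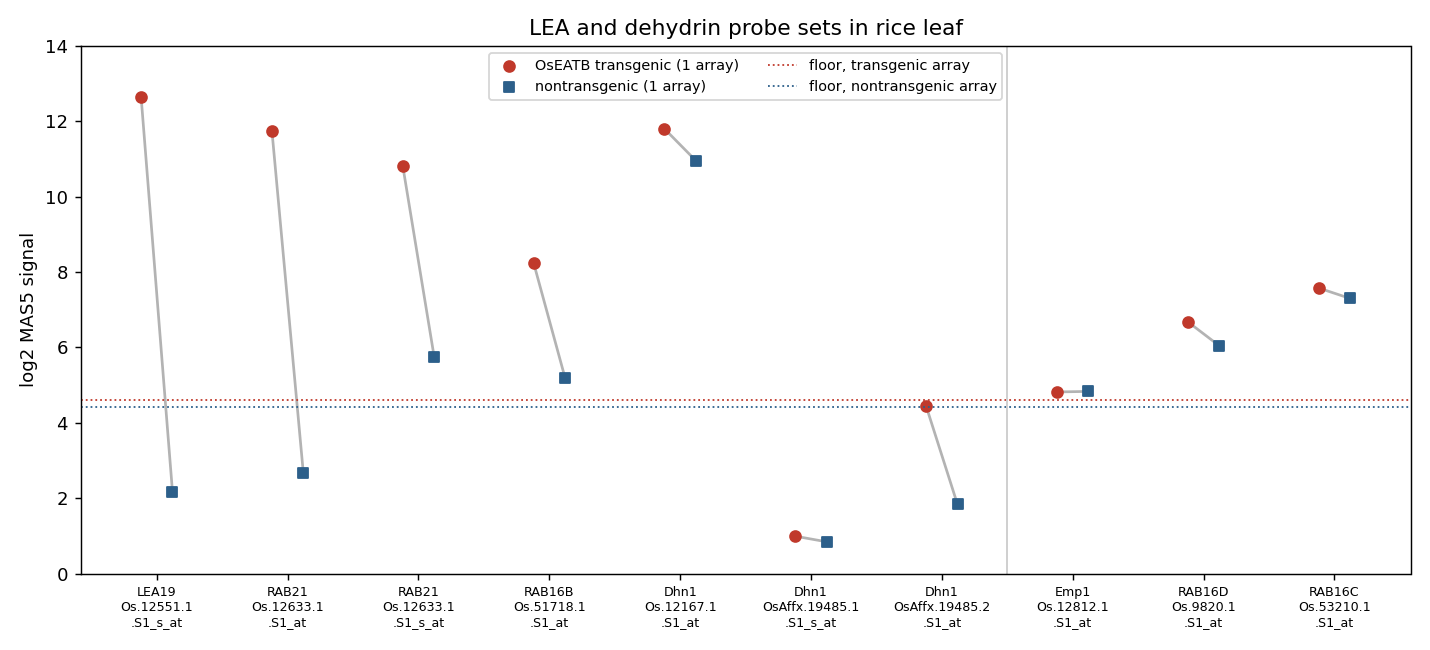
Log2 MAS5 signal (y axis) of every probe set of LEA19, RAB21, RAB16B and Dhn1, and, right of the vertical line, of the other measured family genes, with 1 point per array, circles for OsEATB transgenic and squares for nontransgenic leaves. Dotted lines are the background floors of 4.61 (transgenic) and 4.41 (nontransgenic). LEA19 and the unsuffixed RAB21 probe set cross the floors, while the bright Dhn1 probe set is high on both arrays.

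RAB21, a dehydrin gene of the RAB16 type, was read by 2 probe sets, and both were far brighter in transgenic leaves. The probe set without a suffix, Os.12633.1.S1_at, had a log2 signal of 11.75 in transgenic and 2.67 in nontransgenic leaves. The linear signals were 3447 in transgenic and 6.35 in nontransgenic leaves, and the ratio was at least 162-fold, or 7.34 on the log2 scale. The suffixed probe set, Os.12633.1.S1_s_at, had 10.82 in transgenic and 5.75 in nontransgenic leaves, a ratio of 33.6-fold (5.07 on the log2 scale), and it stands for the gene because its mean signal was higher. On the suffixed probe set the nontransgenic signal was above the floor, and on the unsuffixed probe set it was below. The log2 ratios of the probe sets differed by at least 2.27. The size of the RAB21 ratio therefore rests on the choice of probe set: it was 6.20 as the mean over both, and 6.59 with the floor at the array median, where the unsuffixed probe set came to stand for the gene. Had the unsuffixed probe set been used, RAB21 would have joined LEA19 among the genes that stepped from background to bright.

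RAB16B, a second dehydrin gene of the same type, was higher in transgenic leaves by less. Its single probe set, Os.51718.1.S1_at, has no suffix and gave 8.24 in transgenic and 5.20 in nontransgenic leaves. The nontransgenic signal lay just above the array median of 5.16, and the transgenic signal just below the 75th percentile of 8.39. The ratio was 8.26-fold, a log2 ratio of 3.05, and a ratio of at least 8-fold was reached by 61 of the 15192 genes (0.402%). Adding 64 to each linear signal, which shrinks ratios of dim signals, left a log2 ratio of 1.87.

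RAB21 and RAB16B belong to a row of 4 RAB16 genes on chromosome 11, and the other members of the row differed much less. In the order of the gene table the row runs RAB16D, RAB16C, RAB16B and RAB21, with 2 further annotated genes between RAB16C and RAB16B. Those 2 were not among the genes that passed the level filter. RAB16D had 6.68 in transgenic and 6.04 in nontransgenic leaves, and RAB16C had 7.58 in transgenic and 7.30 in nontransgenic leaves. The log2 ratios along the row were 0.64, 0.28, 3.05 and 5.07, so that the neighbouring pair RAB16B and RAB21 passed 2-fold and the neighbouring pair RAB16D and RAB16C did not. Centring the arrays on spiked hybridisation controls lowers every log2 ratio by 0.89 and puts the median of all genes at -0.90. The ratios along the row were then -0.25 (RAB16D), -0.61 (RAB16C), 2.16 (RAB16B) and 4.18 (RAB21). Dehydrins share sequence, and how far the probes of these 4 genes tell them apart was not tested. The probe sets of RAB16B, RAB16C and RAB16D carry no suffix.

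The genes next to each locus were read in chromosomal order. Of the 10 nearest genes that passed the filter around the RAB16 row, 5 on each side, none passed 2-fold upward and 1 passed it downward, and the log2 ratios lay between -1.35 and 0.66. The 10 around LEA19 on chromosome 5 had 0 higher and 2 lower, between -1.19 and 0.64. Around Dhn1 on chromosome 2, 1 of 10 was higher, LOC4330267, at 7.02 in transgenic and 5.92 in nontransgenic leaves, and 0 were lower. With 6.07% of all genes 2-fold higher and 4.44% 2-fold lower, counts over 10 genes are too small to set a locus apart. The gene order comes from the japonica assembly ASM3414082v1, and the order in cultivar 9311 was not tested.

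**Figure D2:**
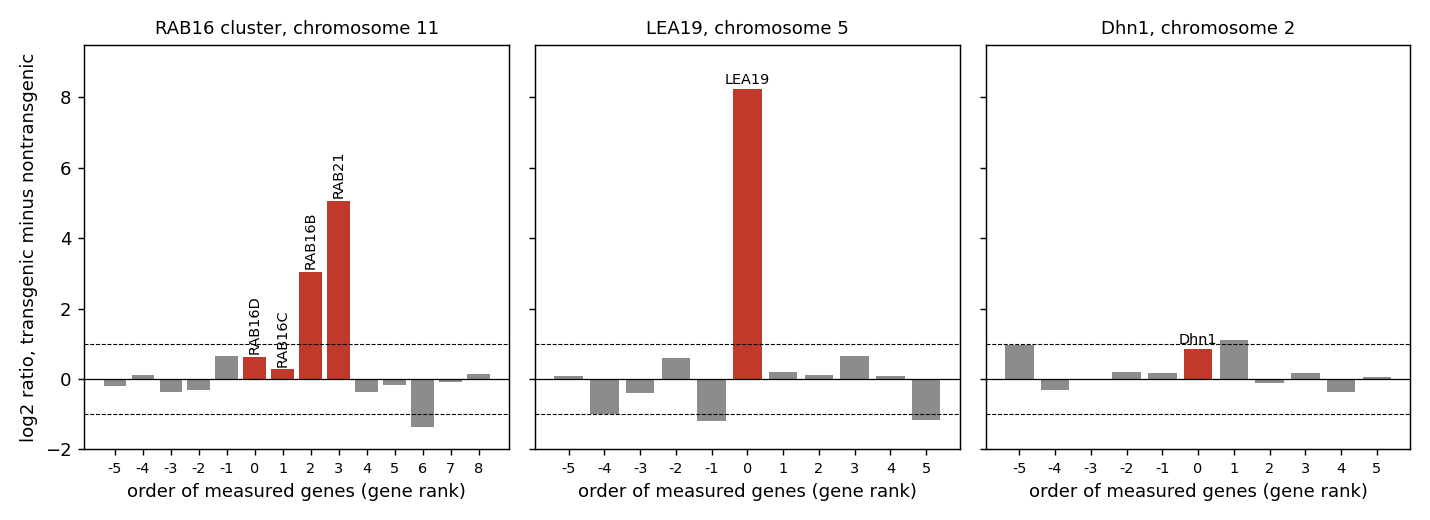
Log2 ratio of transgenic over nontransgenic signal (y axis) for genes in chromosomal order (x axis, rank among genes that passed the level filter), with the RAB16 row, LEA19 and Dhn1 in red and 5 genes on each side in grey. Dashed lines mark 2-fold. Ratios of 3.05 and 5.07 at RAB16B and RAB21 and of 8.24 at LEA19 (a lower bound) stand beside flanking values between -1.35 and 0.66.

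Dhn1, an acidic dehydrin gene that the gene table also lists as LIP9, was bright on both arrays. Its probe set Os.12167.1.S1_at had a log2 signal of 11.80 in transgenic and 10.96 in nontransgenic leaves, or linear signals of 3569 in transgenic and 1986 in nontransgenic leaves. The ratio was 1.80-fold (0.85 on the log2 scale), short of 2-fold, and 1203 genes had a ratio at least as high (7.92% of those that passed). Among the 9813 genes at or above the 75th percentile on both arrays, 2.21% had a ratio as high as that of Dhn1, 145 were 2-fold higher and 110 were 2-fold lower. The sign of this difference rests on the scaling. Centred on the hybridisation controls the log2 ratio of Dhn1 was -0.04, while the median of all genes moved to -0.90. The other 2 probe sets of Dhn1 gave no ratio: OsAffx.19485.1.S1_s_at had 0.99 in transgenic and 0.84 in nontransgenic leaves, OsAffx.19485.2.S1_at had 4.44 in transgenic and 1.83 in nontransgenic leaves, and all 4 of these signals were under the floors. Which of the probe sets reads the Dhn1 transcript best was not tested.

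Set against Dhn1, the fold changes of the other genes were larger by 168 times for LEA19 (a lower bound), 18.7 times for RAB21 and 4.60 times for RAB16B. Such a quotient of ratios does not change when an array is multiplied by a constant, but it moves with the floor and the probe set. For LEA19 it was 53.6 times with the pseudocount. For RAB21 it was 90.0 times with the unsuffixed probe set and 53.7 times with the floor at the array median, and for RAB16B it was 2.06 times with the pseudocount. The order LEA19, RAB21, RAB16B and Dhn1 was the same in each of the 7 alternatives that gave a value for all 4 genes, and with suffixed probe sets left out, where LEA19 has no value, the order of the other 3 was the same. The place of LEA19 before RAB21 is settled only where RAB21 is read by its suffixed probe set. With the floor at the array median, the pseudocount or the mean over probe sets, the value of RAB21 rests wholly or partly on the unsuffixed probe set, whose nontransgenic signal is under the floor as that of LEA19 is. RAB16D and RAB16C had lower ratios than Dhn1 in all of these.

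**Figure D3:**
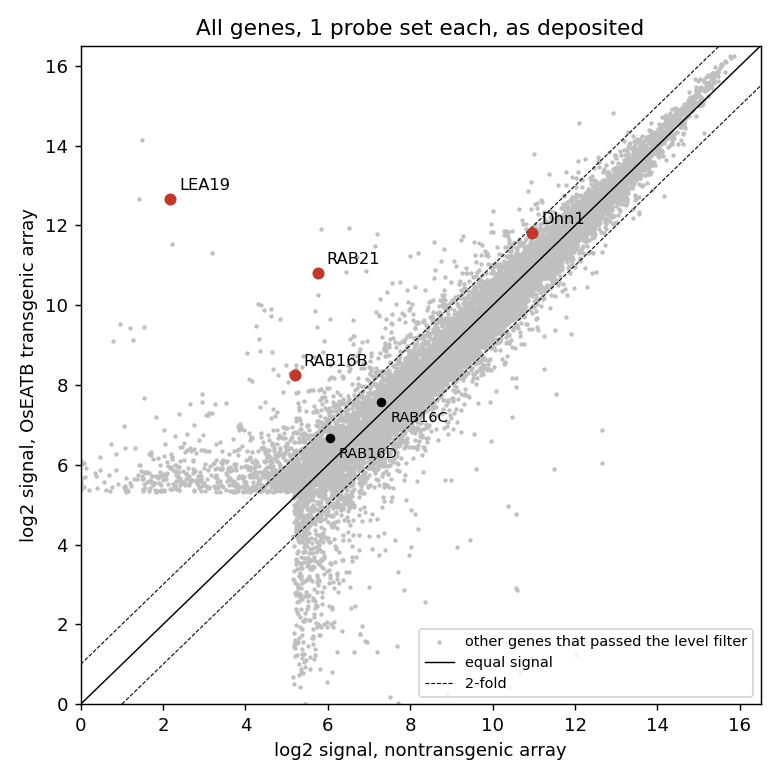
Log2 signal on the transgenic array (y axis) against the nontransgenic array (x axis) for the 15192 genes that passed the level filter, each by 1 probe set as deposited, with the solid line at equal signal and dashed lines at 2-fold. LEA19 (2.17 nontransgenic, 12.65 transgenic) lies far from the cloud, RAB21 and RAB16B lie above it, and Dhn1 lies inside the 2-fold lines among bright genes.

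The family held 8 genes by the names used. These names did not include RAB25, looked up later, so the counts below leave it out. RAB25 had 5.27 in transgenic and 4.87 in nontransgenic leaves and did not pass the level filter. LEA17, another LEA gene, had no probe set tied to it and is not analysed here. Emp1, which encodes an early methionine-labelled protein typical of dry embryos, had 4.82 in transgenic and 4.83 in nontransgenic leaves, both under the array medians, and did not pass the filter. Of the 7 measured family genes, LEA19, RAB21 and RAB16B were at least 2-fold higher, 0 were 2-fold lower, and Dhn1, RAB16C, RAB16D and Emp1 were within 2-fold. The 3 higher genes are among those chosen for their signals. Of the 3 family genes outside the chosen 4, 2 passed the filter and 0 reached 2-fold, a count too small to set against the 6.07% of all genes that were higher.

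The signals of single probe sets scatter, and LEA19 and RAB16B rest on 1 each. Among the genes with several passing probe sets, 11 had a ratio of at least 8-fold on the brightest. The next probe set was higher in transgenic leaves in 11 of these 11, at least 2-fold higher in 9 and at least 8-fold higher in 4. RAB21, chosen for its signals, is counted among the 11 and among the 4. A next probe set could also pass the filter through the transgenic array alone, as the unsuffixed RAB21 probe set did, so that part of this agreement is built in. Over the 95 genes at 2-fold or more, the next probe set was higher in 69 and 2-fold higher in 47. Since all probe sets of a gene were hybridised with 1 RNA sample per group, these counts say nothing of the spread between plants.

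Abscisic acid genes and genes of water-stress protection were listed beside the LEA and dehydrin genes. The hormone is bound by PYL receptors, which then block protein phosphatases of type 2C, and freed SAPK kinases activate bZIP factors that switch on genes such as RAB16. Of 37 measured genes of synthesis, breakdown, signalling, transcription factors and protection, 34 passed the filter, 0 were at least 2-fold higher (6.07% of all genes were) and 1 was 2-fold lower (4.44% of all genes were). With 34 genes, these counts show nothing particular to the lists. Their median log2 ratio was -0.03, beside -0.01 over all genes, and 14 of the 34 lay above 0, as did 7384 of the 15192 genes. These lists overlap with lists examined earlier in the same data and give no independent support.

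In synthesis and breakdown, ZEP, the zeaxanthin epoxidase gene, had 12.55 in transgenic and 12.73 in nontransgenic leaves. The hydroxylase genes that inactivate the hormone had 9.11 in transgenic and 9.77 in nontransgenic leaves (ABA8OX1) and 11.25 in transgenic and 11.04 in nontransgenic leaves (ABA8OX2). None of the 3 reached 2-fold. No probe set was tied to NCED3, a gene of the committed step of synthesis.

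In signalling, 17 of 18 measured genes passed, with log2 ratios between -1.23 and 0.71. PP2C08, a phosphatase gene, was the lower gene, at 5.90 in transgenic and 7.14 in nontransgenic leaves, 2.35-fold lower. PP2C30 had the highest ratio of the list, at 10.86 in transgenic and 10.15 in nontransgenic leaves. The receptor gene PYL11 stood at 12.05 in transgenic and 11.82 in nontransgenic leaves. The kinase genes, SAPK1 to SAPK10, had log2 ratios between -0.60 (SAPK4) and 0.32 (SAPK9). PP2C51, by the one of its 2 probe sets that stands for the gene, was under the floor on both arrays.

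Among transcription factors that act on such promoters, 8 of 10 measured genes passed and 0 reached 2-fold, with 1 value, that of DREB1B, a bound. BZIP23, a bZIP factor of the abscisic acid response, had 12.74 in transgenic and 12.55 in nontransgenic leaves. TRAB1, another, had 11.47 in transgenic and 11.40 in nontransgenic leaves. DREB2A, a factor of the dehydration response, had 6.92 in transgenic and 5.98 in nontransgenic leaves. DREB1B, of the same family, had 3.84, under the floor, in transgenic and 5.27 in nontransgenic leaves, at least 1.58-fold lower, and it was past 2-fold with no floor. VP1, which drives LEA genes in the embryo, was under the floor on both arrays, at 1.81 in transgenic and 0.46 in nontransgenic leaves.

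Of 6 protective and osmolyte genes, all of which passed, 0 reached 2-fold. P5CS1 and P5CS2, which make proline, had log2 ratios of -0.03 and 0.35. The salt-induced lectin gene salT had 8.34 in transgenic and 7.65 in nontransgenic leaves. P5CS2 has 4 probe sets and salT has 2, and only the one that stands for each gene is given. BADH2, a betaine aldehyde dehydrogenase gene, had 10.60 in transgenic and 11.45 in nontransgenic leaves. Over the 4 lists, 0 genes were 2-fold higher in each of the 10 alternatives, and 12 of 34 were 2-fold lower with arrays centred on the hybridisation controls, where 6058 of the 15192 genes were.

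**Figure D4:**
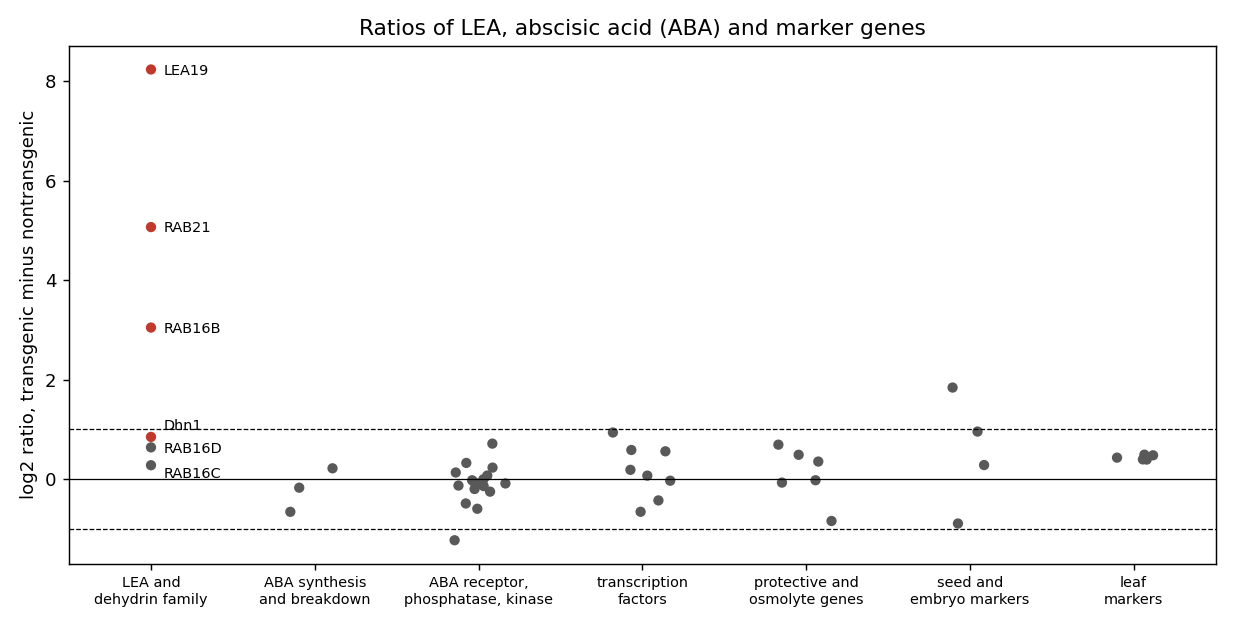
Log2 ratio of transgenic over nontransgenic signal (y axis), 1 point per gene that passed the level filter, by list (x axis), with LEA19, RAB21, RAB16B and Dhn1 in red and dashed lines at 2-fold. LEA19, RAB21 and RAB16B stand at 8.24 (a lower bound), 5.07 and 3.05. The genes of abscisic acid metabolism and signalling, the transcription factors and the protective genes lie between -1.23 and 0.93.

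Among the 2139 genes with a descriptive name, those with the nearest log2 ratio were found for each of LEA19, RAB21 and RAB16B over the 2 arrays, with lower bounds taken as they stand. For LEA19 the nearest was PIN4, with a log2 ratio of at least 5.60. The ratios of LEA19 and PIN4 are both lower bounds, so that the distance between them is unknown. RAB21, by its suffixed probe set, lay 0.53 from the bound of PIN4, 0.55 from the peroxygenase gene PXG and 0.90 from ICL, the isocitrate lyase gene of the glyoxylate cycle. RAB16B lay 0.03 from the malate synthase gene MS, 0.15 from the early nodulin-like gene ELA3 and 0.27 from the metallothionein gene MT1B. PXG had 10.27 in transgenic and 5.75 in nontransgenic leaves, and ICL had 9.85 in transgenic and 5.68 in nontransgenic leaves.

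Markers of leaf and of other tissues were read on both arrays, because LEA and dehydrin transcripts are abundant in seeds. Of 6 leaf genes 5 were bright on both arrays, with log2 ratios between 0.39 and 0.49, and the plastocyanin gene PETE had 15.82 in transgenic and 15.34 in nontransgenic leaves. RBCS1 was under the floor on both, by a probe set of its own, while RBCS was bright. Of 10 seed and embryo genes, 5 were under the floors on both arrays, and the summed linear signal of the list was 2680 in transgenic and 2245 in nontransgenic leaves. Most of that sum was the glutelin gene GLUA-2, with linear signals of 2410 in transgenic and 1986 in nontransgenic leaves. Among the marker genes, GLUA-2, RAG1, PROLM25 and the leaf gene CAB2R have 2 probe sets each. RAG2, RBCS and the leaf gene RCA have 4 each. Only the probe set that stands for each gene is used here. GLUB-5, another glutelin gene, had 6.49 in transgenic and 4.65 in nontransgenic leaves, 3.58-fold higher. GLUA-3 had 5.37 in transgenic and 1.07, under the floor, in nontransgenic leaves, at least 1.94-fold higher, while RAG2 had 6.48 in transgenic and 7.38 in nontransgenic leaves. PROLM25, GLUD1, RAG1, GLUB-4 and GLUA-1 were the genes under the floors. Emp1 is in this list as well. Of 3 root genes, Lsi2 was under the floors and Lsi1, a silicon channel gene, had 9.57 in transgenic and 8.62 in nontransgenic leaves, while IRT1, an iron transporter gene, had 5.68 in transgenic and 5.99 in nontransgenic leaves. The summed linear signal of the root list was 810 in transgenic and 459 in nontransgenic leaves, most of it from Lsi1. Both pollen and anther genes were under the floor in transgenic leaves, and their summed linear signal was 4.57 in transgenic and 73.8 in nontransgenic leaves. The part of these marker levels in the LEA and dehydrin ratios was not tested.

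**Figure D5:**
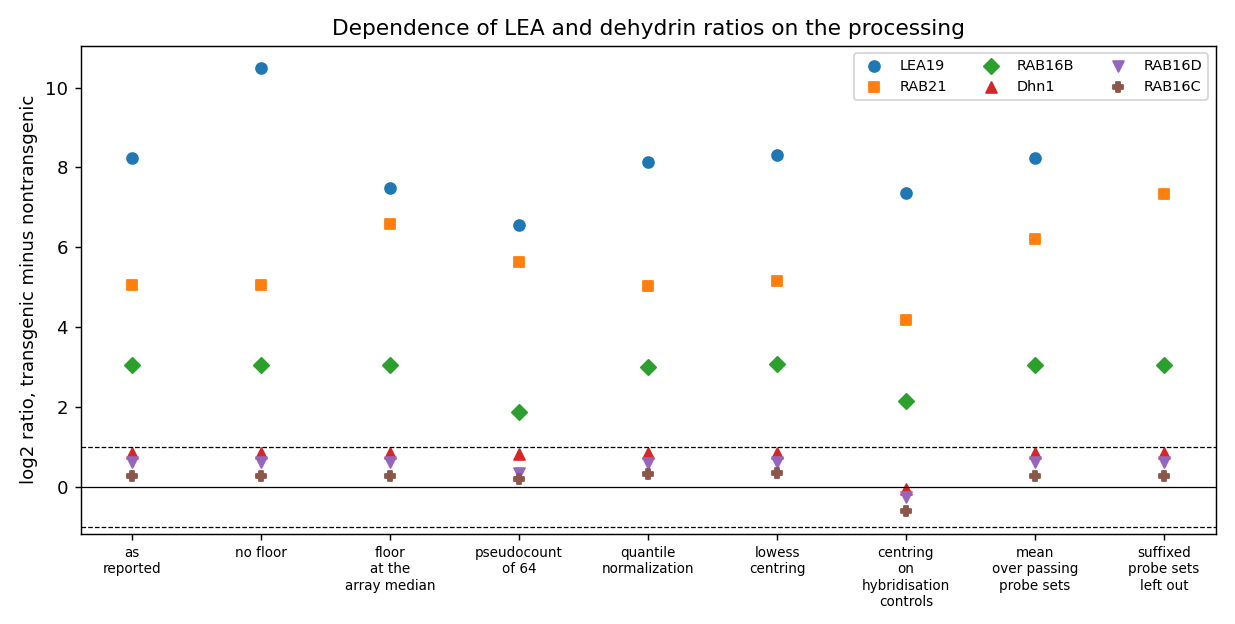
Log2 ratio of transgenic over nontransgenic signal (y axis) of 6 family genes as reported and under 8 other ways of processing (x axis), with dashed lines at 2-fold. LEA19, RAB21 and RAB16B stay above 2-fold wherever they have a value, and Dhn1, RAB16D and RAB16C move below 0 when the arrays are centred on the hybridisation controls, where the median of all genes is -0.90.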

How the data were processed

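The deposited values are log2 signals of 1-colour arrays, made by the authors with MAS5, per the submitters' processing notes. The sources used here do not give its version, the scaling target or detection calls. Unlogged, both arrays had a mean of 500.1 after 2% was trimmed at each end. Controls of the array maker (187 probe sets) were set apart. Of the other probe sets 22436 had 1 gene in the platform's gene table, 95 had several and 34663 had none. All 17905 genes were found in the rice gene reference ASM3414082v1. Coordinates are not printed, since the files name no build. A gene was represented by its passing probe set with the highest mean signal after the floor. Log2 ratios are transgenic minus nontransgenic.

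The genes and lists were chosen with earlier results of these data known. Named genes are the 4 genes and their family, genes nearest in ratio, and list members at 2-fold with some others picked as examples after their values were known. Many list genes were matched by a synonym. By hand, 3 names that only shared a synonym with a list (TRAB1 as ABA1, MADS3 as RAG, GLB1) were removed from it. Counting was tested on simulated arrays. Python 3.11.15, pandas 2.3.3 and statsmodels 0.14.6 were used. The alternatives changed the floor, scaling, level filter and choice of probe set. The number of arrays limits the precision.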

Additional observations from a re-analysis of the deposited data

How the results depend on the processing

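A move of more than 1.5-fold was taken as a change, and no value has a replicate error. With no floor the log2 ratio of LEA19 was 10.49, with the floor at the array median it was 7.49 for LEA19 and 6.59 for RAB21, and with the pseudocount of 64 it was 6.57 for LEA19 and 1.87 for RAB16B. Centred on the 18 hybridisation controls, which were brighter by 0.89 on the transgenic array, the ratios were 7.35 for LEA19, 4.18 for RAB21, 2.16 for RAB16B and -0.0445 for Dhn1, all lower by that constant. With suffixed probe sets left out RAB21 had 7.34 and LEA19 had no value, and as the mean over probe sets RAB21 had 6.20. Quantile normalization and lowess centring moved none of the 4 by that much. The 3 higher family genes were the same under every alternative except suffixed probe sets left out (without LEA19) and the 75th percentile filter (without RAB16B), with 2 each. Over all genes, higher and lower counts were 364 and 262 with the pseudocount, 208 and 6058 with control centring and 297 and 218 with the 75th percentile filter. Higher genes were 57.7% of those past 2-fold, and 3.32% with control centring. Over the abscisic acid, transcription factor and protective lists, the 2-fold lower genes numbered 2 with no floor and 0 with the pseudocount. They numbered 12 with control centring and 0 with the 75th percentile filter. No paired analysis was possible because each group has 1 array. Dim nontransgenic signals limit LEA19 and the unsuffixed RAB21 probe set, both under the floor, and RAB16B, just above the array median.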

Other observations

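Another 3 genes with names tied to dehydration or abscisic acid were looked up after the values were seen, and were in none of the lists. PM19L1, a plasma membrane protein gene of maturing seeds, had a log2 signal of 7.23 in transgenic and 4.71 in nontransgenic leaves, 5.74-fold higher. PM19L1 has 2 probe sets, and only the one that stands for the gene is given here. Its nontransgenic signal lay between the background floor and the array median. This probe set therefore passed the level filter through the transgenic array alone. Osr40c1, a gene that responds to abscisic acid and salt, had 8.43 in transgenic and 7.78 in nontransgenic leaves, a log2 ratio of 0.66. RAB25, a dehydration-induced gene, had 5.27 in transgenic and 4.87 in nontransgenic leaves and did not pass the level filter. The names used for the LEA and dehydrin family did not include RAB25, and the counts of family genes leave it out.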
